A study of Homo sapiens with 6 samples.

Results

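The unfolded protein response genes examined here were HSPA5, HSP90B1, XBP1, ATF6, ERN1, HERPUD1, SDF2L1, PDIA4, CALR and EDEM1. They were taken from a list of 10 symbols, and a row of the deposited expression table was counted as a member when its identifier, split at commas, held a listed symbol. All 10 symbols were found, each in 1 row, out of 24108 rows. The samples were RNA-seq libraries of MDA-MB-231, an established triple-negative (basal) breast cancer cell line. In 3 of them (shCtr) the cells carried a lentiviral hairpin against firefly luciferase, and in 3 (shZNF148) a hairpin against ZNF148, a zinc finger transcription factor. Both groups were transduced for 48 h and then kept for 24 h in puromycin at 0.5 µg/ml, so infection and selection were common to all 6 samples. There was 1 hairpin against ZNF148, so an effect of that hairpin and an effect of ZNF148 loss cannot be told apart. The labels do not say whether the replicates were separate cultures. If they were not, the p-values measure technical spread only.

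The endoplasmic reticulum (ER) is where secreted and membrane proteins are folded. When unfolded proteins build up there, sensors in the ER membrane start the unfolded protein response (UPR). The kinase and nuclease IRE1, encoded by ERN1, splices the XBP1 mRNA so that it encodes an active transcription factor. ATF6 is cut in the Golgi and its released part enters the nucleus. PERK slows translation and favors the production of ATF4. The resulting transcription factors raise chaperones, disulfide isomerases and the machinery that exports misfolded proteins for degradation. Splicing of XBP1 and cutting of ATF6 are not visible in gene-level values, which give the mRNA amount only.

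ATF6 and XBP1 act through a promoter word known as the ER stress response element (ERSE), which reads CCAAT, a spacer of 9 bases, and CCACG. A shorter relative, ERSE-II, reads ATTGG, a spacer of 1 base, and CCACG. Both were searched on both strands of RefSeq promoter windows (GRCh38.p14), which run from 250 bases before to 50 bases after each gene start. ERSE was found for HSPA5, HSP90B1, CALR and XBP1, and ERSE-II for HERPUD1 and SDF2L1. Of all 35116 windows, 27 held ERSE (0.0769%) and 19 held ERSE-II (0.0541%). The elements of these 6 members are shown because they are the letters the members share beyond the list. All coordinates are GRCh38. Capitals mark the fixed letters and lower case the spacer and 5 flanking bases on each side.
HSPA5, chr9:125241386-125241414, minus strand: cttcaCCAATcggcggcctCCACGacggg
HSP90B1, chr12:103930211-103930239, plus strand: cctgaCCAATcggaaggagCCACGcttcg
HSP90B1, chr12:103930316-103930344, minus strand: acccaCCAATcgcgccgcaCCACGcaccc
CALR, chr19:12938379-12938407, minus strand: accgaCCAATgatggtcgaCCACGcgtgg
XBP1, chr22:28800598-28800626, minus strand: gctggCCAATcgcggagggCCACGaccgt
HERPUD1, chr16:56932020-56932040, plus strand: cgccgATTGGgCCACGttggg
SDF2L1, chr22:21642109-21642129, minus strand: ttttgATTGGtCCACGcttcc

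HSP90B1 carried 2 exact copies of ERSE in its window, on opposite strands, which began 194 and 89 bases before its start. This was the most among the members in this search, which did not count inexact copies or copies outside the windows. The element began 66 bases before the start of HSPA5, 52 before that of XBP1, 225 before that of CALR, 117 before that of HERPUD1 and 188 before that of SDF2L1. XBP1 and PDIA4 had 2 windows each, and the XBP1 element lay in 1 of its 2. No exact copy of either element was found in the windows of ATF6, ERN1, PDIA4 or EDEM1, which says only that these letters are not in these windows. TGACGTGG, a word resembling the binding site of spliced XBP1, was in no member's window and in 0.729% of all windows. CCCTCCCC, a C-rich word of the GC-rich kind that ZNF148 is known to bind, was in the windows of HSPA5 and SDF2L1 and in 13.6% of all windows. These matches are descriptions of sequence, and binding was not measured here.

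The hairpin target listed for shZNF148 is shown because it defines the perturbation. It lies on chr3:125232398-125232418 (GRCh38, minus strand), in exon 9 of 9 of ZNF148. Capitals mark the word that pairs with bases 2 to 8 of the guide strand.
shZNF148 target: cccttggtgaatgTAAATGAt
The word TAAATGA was in the 3′ UTR of 0 of the 10 members, and in 3976 of 19548 canonical 3′ UTRs of GENCODE release 44 (20.3%).

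The depth of the libraries is not given by a table of FPKM, a unit that divides the fragments of a gene by its length and by the number of fragments mapped. Steps between low values put the depth of the other samples at 0.806 to 1.13 of that of shCtr replicate 1, with shZNF148 replicate 3 the shallowest. ZNF148 itself was at 3.72, 4.36 and 4.30 FPKM in replicates 1, 2 and 3 of shCtr, against 0.914, 0.282 and 0.834 FPKM in those of shZNF148. The mean fell to 16.4% of control (log2 fold change -1.63, SE 0.18, adjusted p = 0.0099, limma). The fit adds 1 FPKM to every value, which understates the change of such a low gene. With 0.1 FPKM added the log2 fold change was -2.57, and with 5 FPKM added it was -0.69. Of 6 mesenchymal and basal markers of MDA-MB-231, VIM, CD44, AXL, CAV1 and MSN lay between 174 and 1842 FPKM and SPARC at 1.49 FPKM or less. Their sum was 3104 to 3225 FPKM in shCtr and 2596 to 2682 FPKM in shZNF148, where CD44 and AXL fell. Of 9 luminal markers, the defining ESR1 and TFF1 were listed at 0 and PGR, FOXA1 and CDH1 stayed below 0.5 FPKM, while GATA3, KRT8, KRT18 and KRT19 were present. The KRT19 row also carries the symbol of the basal keratin KRT17, so it cannot be assigned to the luminal gene alone, and it was the largest part of the luminal sum. The luminal sum was 544 to 624 FPKM in shCtr and 506 to 571 FPKM in shZNF148, where KRT18 fell (log2 fold change -0.36, adjusted p = 0.0285, limma). The summed level of 6 immune and blood markers was 1.09 to 1.67 FPKM in shCtr and 3.09 to 6.98 FPKM in shZNF148. Among them, HBB was listed at 0 and PTPRC and CD3E did not exceed 0.115 FPKM, whereas CD14, a monocyte gene, lay between 0.470 and 2.01 FPKM and LYZ (lysozyme) reached 4.97 FPKM and rose. The part of these markers in the results was not tested.

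Knockdown of ZNF148 was accompanied by a change in 1 of the 10 UPR genes at an adjusted p under 0.05. Of all tested rows, 5.46% were higher and 8.13% lower in shZNF148 at that threshold. HSP90B1, which encodes the ER paralog of HSP90 (GRP94), fell to 70.3% of its control level, a call that held in 9 of 16 alternative fits. HSPA5, which encodes the chaperone BiP, averaged 119.6% of control, but this difference did not pass the test across all genes. ATF6 and EDEM1 did not pass it either, although their groups were separate, and XBP1, ERN1, HERPUD1, SDF2L1, PDIA4 and CALR overlapped between groups. In shZNF148, 5 members had a higher and 5 a lower mean.

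The test was made on log2(FPKM + 1) with limma in the 11777 rows that averaged 1 FPKM or more, with p-values adjusted over all of them by the Benjamini-Hochberg method. A gene is said to have risen or fallen where its adjusted p was under 0.05. All 10 members passed the filter on low values. Of the members 0 rose and 1 fell, where 5.46% of all tested rows rose and 8.13% fell. With a change of more than 1.5-fold asked for as well, limma called 0 of the 10 members, against 1.83% of all rows called higher and 3.66% called lower. At an unadjusted p under 0.05 there were 4 members, where 33.8% of all rows were. The groups did not overlap for 4 members (HSPA5, HSP90B1, ATF6 and EDEM1), where the same held for 41.0% of all rows. The members' shares were thus close to those of the whole table. Their median log2 fold change was -0.01, beside 0.01 for all rows, of which 50.9% had a higher mean in shZNF148.

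ATF6, the membrane-tethered factor, was at 33.8, 35.7 and 35.5 FPKM in shCtr replicates 1, 2 and 3 and at 38.5, 43.6 and 37.9 FPKM in shZNF148. All shZNF148 values lay above all shCtr values. The log2 fold change was 0.18 (95% interval 0.01 to 0.36, adjusted p = 0.133, limma), with p = 0.1 in a two-sided exact permutation test, which can go no lower with 3 samples a group.

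ERN1, which encodes IRE1, was the lowest of the members, at 3.01, 2.79 and 2.05 FPKM in shCtr and 2.43, 1.90 and 1.72 FPKM in shZNF148. The groups overlapped, since shCtr replicate 3 lay below shZNF148 replicate 1. The log2 fold change of -0.26 (95% interval -0.62 to 0.11, adjusted p = 0.279, limma) leaves a decrease of more than 1.5-fold within its interval. With a pseudocount of 0.1 FPKM it was -0.36 and with 5 FPKM it was -0.12, and ERN1 passed in neither fit. With a replicate left out it ranged from -0.38 to -0.18. XBP1, the substrate of IRE1, was at 60.7, 74.0 and 60.7 FPKM in shCtr and 70.6, 77.2 and 67.5 FPKM in shZNF148. Here shCtr replicate 2 lay among the shZNF148 values, and the log2 fold change was 0.14 (95% interval -0.09 to 0.38, adjusted p = 0.349, limma). It was 0.24 without shCtr replicate 2 and 0.09 without shCtr replicate 1 or shZNF148 replicate 2, and passed in none of these fits (lowest adjusted p = 0.133, limma).

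Among the chaperones, HSP90B1 was at 906, 874 and 832 FPKM in shCtr and 645, 518 and 673 FPKM in shZNF148. The lowest control value was well above the highest knockdown value. The control mean of 871 ± 37.2 FPKM compared with 612 ± 82.7 FPKM after knockdown (SD, n = 3 each). HSP90B1 fell by 0.52 on the log2 scale (SE 0.11, 95% interval -0.77 to -0.26, adjusted p = 0.0312, limma), and the exact permutation p was 0.1. The call was lost without shCtr replicate 1 (adjusted p = 0.125, limma), shCtr replicate 2 (0.0913), shCtr replicate 3 (0.103) or shZNF148 replicate 1 (0.067). It was also lost without a filter on low values (0.054) and with quantile normalization (log2 fold change -0.35, adjusted p = 0.151, limma). The value stayed negative in all 16 alternatives, from -0.59 to -0.35, and passed in 9 of them.

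The row of HSP90B1 also carries the symbol MIR3652, a microRNA gene that overlaps exon 1 of the 18 exons of HSP90B1 on the same strand (chromosome 12, GRCh38). The value of this row therefore cannot be divided between them. HSP90B3P, a pseudogene copy of HSP90B1 on chromosome 1 chosen here after its values were seen, was at 99.1, 81.5 and 85.7 FPKM in shCtr and 60.3, 55.7 and 67.8 FPKM in shZNF148. Its log2 fold change was -0.53 (adjusted p = 0.027, limma). Reads of near-identical copies can be exchanged between rows, so the copy is no independent measurement and its own expression is uncertain.

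HSPA5 encodes BiP, the HSP70 chaperone of the ER lumen that holds the UPR sensors inactive while it is bound to them. It was at 338, 330.1 and 327 FPKM in shCtr, a range much narrower than the 376, 457 and 356 FPKM of shZNF148. Every knockdown value was above every control value, with shZNF148 replicate 2 the highest. The mean went from 332 ± 5.45 FPKM in shCtr to 396 ± 53.4 FPKM in shZNF148 (SD, n = 3 each). This gave a log2 fold change of 0.25 (SE 0.10, 95% interval 0.01 to 0.48) with an adjusted p of 0.131 (limma) and an exact permutation p of 0.1. Without shZNF148 replicate 2 the log2 fold change was 0.14, with an adjusted p of 0.11 (limma).

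CALR, the lectin chaperone calreticulin and the most abundant member, was at 1683, 1644 and 1689 FPKM in shCtr and 1467, 1815 and 1571 FPKM in shZNF148. Here shZNF148 replicate 2 was above all controls and the other two below them. The log2 fold change was -0.05 (95% interval -0.27 to 0.16, adjusted p = 0.708, limma). SDF2L1, a small partner of BiP complexes, was at 19.7, 18.9 and 24.3 FPKM in shCtr and 24.7, 23.1 and 24.0 FPKM in shZNF148. The groups overlapped through shCtr replicate 3, and the log2 fold change was 0.19 (95% interval -0.05 to 0.44, adjusted p = 0.233, limma). It was 0.30 without shCtr replicate 3 and 0.12 without shCtr replicate 2, and passed in neither fit (adjusted p = 0.106 and 0.475, limma).

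PDIA4, a protein disulfide isomerase of the ER lumen, was at 308, 302 and 303 FPKM in shCtr and 296, 354 and 287 FPKM in shZNF148. The controls lay inside the range of the knockdown samples. The log2 fold change was 0.03 (95% interval -0.18 to 0.24, adjusted p = 0.838, limma), so a change of 1.5-fold in either direction lay outside the interval.

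Both degradation genes had lower means in shZNF148 without passing the test. HERPUD1, a membrane protein that helps assemble the ubiquitin ligase complex of ER-associated degradation, was at 47.8, 40.9 and 43.7 FPKM in shCtr and 35.7, 51.4 and 34.4 FPKM in shZNF148. Replicates 1 and 3 of shZNF148 were below all controls and replicate 2 above them, for a log2 fold change of -0.14 (95% interval -0.52 to 0.23, adjusted p = 0.558, limma). Without shZNF148 replicate 2 the log2 fold change was -0.32 (adjusted p = 0.0493, limma), and HERPUD1 passed, whereas without shZNF148 replicate 3 it was -0.04 (adjusted p = 0.889, limma). EDEM1, a lectin that directs misfolded glycoproteins to degradation, was at 26.0, 25.3 and 24.8 FPKM in shCtr and 21.7, 23.9 and 22 FPKM in shZNF148. All knockdown values were below all controls, by a log2 fold change of -0.16 (95% interval -0.32 to -0.01, adjusted p = 0.137, limma).

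**Figure D1:**
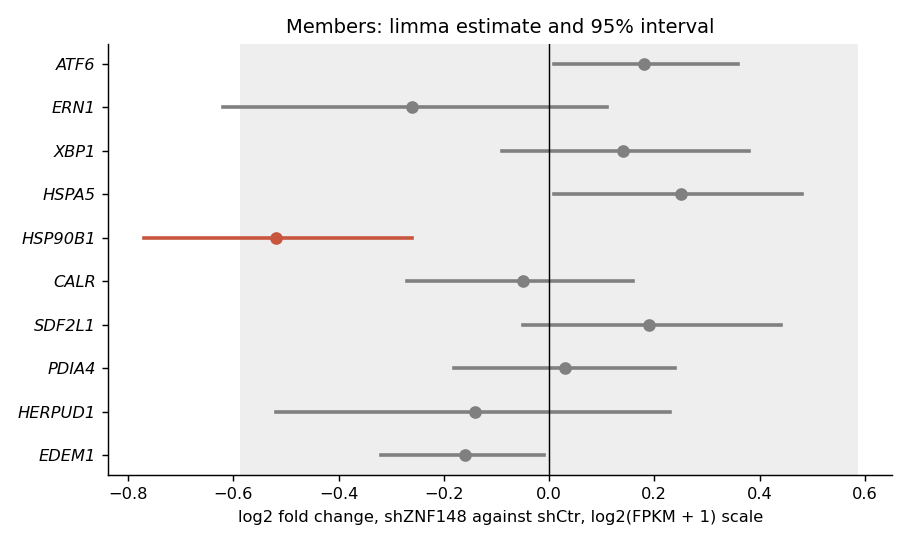
Log2 fold change of each member (x axis, shZNF148 against shCtr on the log2(FPKM + 1) scale) with its 95% interval from limma. Red marks an adjusted p under 0.05, gray the others, and the shaded band a change of less than 1.5-fold either way. HSP90B1 at -0.52 is the single red member, and the other estimates lie between -0.26 and 0.25.

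FPKM is a value per length, so levels can be ordered across genes. CALR had the highest mean over the 6 samples (1645 FPKM, percentile 99.8 of the tested rows), followed by HSP90B1 (741 FPKM), HSPA5 (364 FPKM) and PDIA4 (308 FPKM, percentile 98.3). XBP1 (68.4 FPKM), HERPUD1 (42.3 FPKM), ATF6 (37.5 FPKM), EDEM1 (24.0 FPKM) and SDF2L1 (22.4 FPKM) stood in the middle. ERN1 was far below them at 2.32 FPKM (percentile 10.5). Neighbors in this order whose values overlapped over the 6 samples were HSPA5 and PDIA4, HERPUD1 and ATF6, and EDEM1 and SDF2L1. Compared within each sample, HSPA5 lay above PDIA4 in all 6. The order within each of the other pairs was reversed in shZNF148 replicates 1 and 3 and kept in the other samples. The summed level of the 10 members was 3426, 3347 and 3342 FPKM in shCtr and 2977, 3366 and 3075 FPKM in shZNF148. The sums overlapped between groups (exact two-sided permutation test, p = 0.3). CALR and HSP90B1 make up most of each sum, so it says little about the lower members.

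The ordering of HSP90B1 over HSPA5 was kept in every sample, but the distance between them differed. The ratio of HSPA5 to HSP90B1, which does not depend on how samples were scaled to each other, was 0.372, 0.378 and 0.393 in the control samples. In shZNF148 the same ratio came to 0.582, 0.882 and 0.529. All knockdown ratios were above all control ratios. This ratio was chosen after the values were seen and is given without a test.

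**Figure D2:**
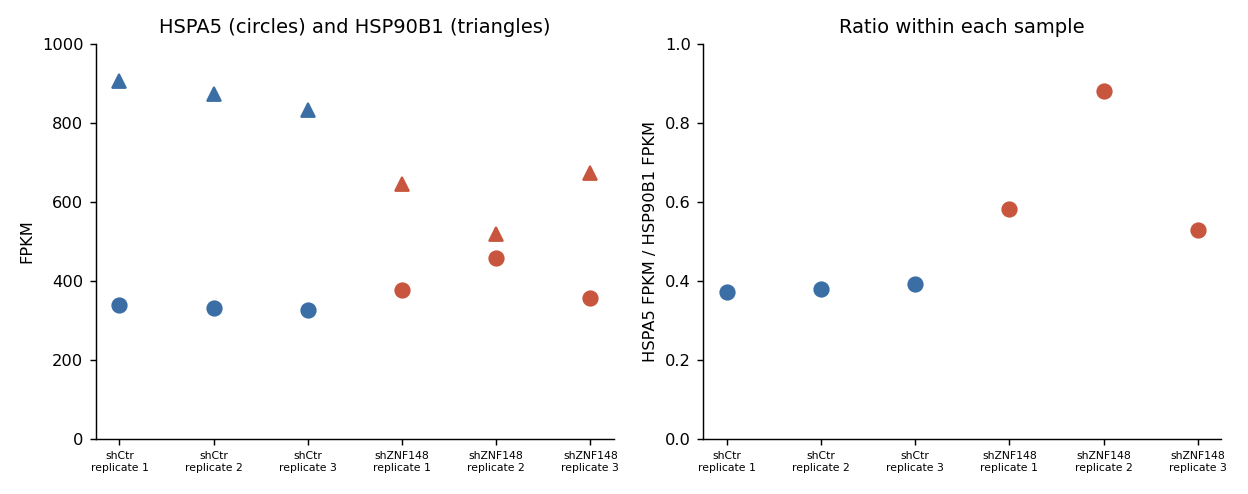
Left, FPKM of HSPA5 (circles) and HSP90B1 (triangles) in each sample, shCtr in blue and shZNF148 in red; right, the ratio of HSPA5 to HSP90B1 FPKM in the same samples. The ratio lies at 0.372 to 0.393 in shCtr and at 0.529 to 0.882 in shZNF148, with shZNF148 replicate 2 the highest.

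The members differed in which knockdown sample was highest. The highest shZNF148 value was in replicate 2 for 7 of the 10 members, where the same held for 40.0% of all tested rows. That replicate was the highest of all 6 samples for 6 members, a count for which the share of all rows was not taken. Within shZNF148, HSP90B1 and SDF2L1 had their lowest value in that replicate, as did 38.7% of all rows. ZNF148 was also lowest in shZNF148 replicate 2. The 5 tested rows whose pattern over the 6 samples was most like that of HSPA5 were TPRG1L, PKD1, CRY2, SLC2A4RG and CTSA, with Pearson correlations of log2(FPKM + 1) from 0.9953 to 0.9985. These are descriptions over 6 samples that share 2 conditions, and 317 rows reached at least 0.95. TPRG1L, for instance, was at 11.8, 11.8 and 11.3 FPKM in shCtr and 14.3, 20.0 and 13.1 FPKM in shZNF148.

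Other genes of the pathway, without the 10 members, were counted in 6 lists of ER genes, 155 in all, of which 154 were found and 144 tested. Of these 7 rose (4.86%) and 12 fell (8.33%), again close to the shares of all rows, and their median log2 fold change rounded to 0.00. The lists and members were chosen with earlier results of these data known. A total of 19 genes, named by a rule, are given below for these lists and for 2 related ones. All 19 passed the test, by construction of the rule. Leaving out shCtr replicate 1 or shCtr replicate 3 left 0 of them past it, leaving out shCtr replicate 2 left 1 (ASNS), and leaving out shZNF148 replicate 1 left 2 (WFS1 and DNAJB11). Without shZNF148 replicate 2 it was 17, and without replicate 3 it was 13. No direction was reversed in any alternative.

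Of 17 tested UPR sensors, factors and regulators, 1 rose and 2 fell. WFS1 encodes wolframin, an ER membrane protein that restrains the UPR. It was at 14.6, 15.5 and 14.2 FPKM in shCtr and 7.77, 4.44 and 7.38 FPKM in shZNF148, with no overlap. WFS1 fell to 44.3% of control (log2 fold change -1.10, SE 0.18, adjusted p = 0.0201, limma). CREB3 and CREB3L2 encode ER-tethered factors related to ATF6 and went in opposite directions. CREB3 rose by 0.36 on the log2 scale, from 29.1 ± 1.24 to 37.8 ± 3.84 FPKM (SD, n = 3 each; adjusted p = 0.0429, limma). CREB3L2 fell by 0.32, from 51.6 ± 1.12 to 41.2 ± 2.97 FPKM (adjusted p = 0.0356, limma). EIF2AK3, the gene of the sensor PERK, had a log2 fold change of -0.03 (95% interval -0.23 to 0.17). CREB3L3, singled out after its values were seen, was at 0.190, 0.174 and 0.180 FPKM in shCtr and 1.96, 20.7 and 2.03 FPKM in shZNF148. Its log2 fold change of 2.30 did not pass (adjusted p = 0.0834, limma), and shZNF148 replicate 2 lay far above the other two. The value depended on the setting. It passed with a pseudocount of 0.1 FPKM (4.0, adjusted p = 0.0321, limma) and without shZNF148 replicate 2 (1.34, adjusted p = 0.00547, limma), and was 1.06 with a pseudocount of 5 FPKM (adjusted p = 0.178, limma).

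Of 28 tested ER chaperones and cochaperones, 3 rose and 1 fell, with a median log2 fold change of 0.09. DNAJB11, a J-domain protein that hands unfolded chains to BiP, was at 67.1, 73.9 and 67.8 FPKM in shCtr and 89.6, 104 and 107 FPKM in shZNF148. DNAJB11 rose by 0.52 on the log2 scale (SE 0.09, adjusted p = 0.02, limma). DNAJC3, another J-domain partner of BiP and an inhibitor of PERK, rose by 0.36, from 14.1 ± 0.639 to 18.3 ± 0.273 FPKM (SD, n = 3 each; adjusted p = 0.0234, limma). FKBP7, an ER prolyl isomerase, rose by 0.56, from 4.18 ± 0.303 to 6.66 ± 1.19 FPKM (adjusted p = 0.0384, limma). The gene that fell, named after its values were seen, was GANAB, the catalytic subunit of glucosidase II, with a log2 fold change of -0.21 (adjusted p = 0.0444, limma). Unlike DNAJB11 and DNAJC3, the list genes HYOU1, MANF, DNAJB9 and CRELD2, given as pathway context, did not pass. HYOU1 had a log2 fold change of 0.12 (adjusted p = 0.225, limma), MANF of 0.17 (0.196), DNAJB9 of -0.04 (0.798) and CRELD2 of -0.21 (0.19). For HYOU1 and MANF every shZNF148 value lay above every shCtr value, where the groups did not overlap for 41.0% of all rows.

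The disulfide isomerases and oxidases gave 1 rise and 2 falls among 20 tested genes. QSOX1 and QSOX2, sulfhydryl oxidases of the secretory pathway, fell together. QSOX1, whose row also carries the symbol FLJ23867, fell by 0.42 on the log2 scale, from 234 ± 10.7 to 174 ± 14.5 FPKM (SD, n = 3 each; adjusted p = 0.025, limma). QSOX2 fell by 0.48, from 32.0 ± 2.65 to 22.7 ± 2.63 FPKM (adjusted p = 0.033, limma). TMX1, a membrane-bound thioredoxin of the ER, rose by 0.23 to 24.1 ± 0.0427 FPKM from 20.4 ± 0.576 FPKM (adjusted p = 0.0478, limma). PDIA6 and P4HB, paralogs of PDIA4, had log2 fold changes of 0.11 (adjusted p = 0.369, limma) and -0.09 (0.628).

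In ER-associated degradation 0 of 29 tested genes rose and 1 fell. That gene was DNAJB12, a J-domain protein of the ER membrane, which fell by 0.35 on the log2 scale, from 23.3 ± 0.494 to 18.1 ± 1.01 FPKM (SD, n = 3 each; adjusted p = 0.0265, limma). The core ligase genes SYVN1 and SEL1L had log2 fold changes of 0.12 and -0.03 and did not pass (adjusted p = 0.39 and 0.787, limma).

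Translocation and signal peptide processing gave 2 rises and 4 falls among 36 tested genes. STT3B, a catalytic subunit of the oligosaccharyltransferase that adds sugar chains to proteins after translocation, was at 138, 131 and 136 FPKM in shCtr and 69.5, 37.7 and 73.0 FPKM in shZNF148. It fell to 44.5% of control (log2 fold change -1.21, SE 0.24, adjusted p = 0.0273, limma). Its paralog STT3A had a log2 fold change of 0.01 (adjusted p = 0.941, limma). SSR3, a subunit of the translocon-associated complex, fell by 0.53, from 55.9 ± 2.00 to 38.7 ± 5.76 FPKM (SD, n = 3 each; adjusted p = 0.0313, limma). SRP54, the GTPase of the signal recognition particle, fell by 0.55, from 56.9 ± 4.36 to 38.6 ± 6.00 FPKM (adjusted p = 0.0356, limma). Like HSP90B1, all 3 had their lowest value in shZNF148 replicate 2. The remaining genes that passed are named after their values were seen. OSTC, an oligosaccharyltransferase subunit, fell (log2 fold change -0.27, adjusted p = 0.0356, limma). SEC11C, a catalytic subunit of signal peptidase (0.55, adjusted p = 0.0468, limma), and SRPRB, a subunit of the signal recognition particle receptor (0.28, adjusted p = 0.0443, limma), rose.

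Of 14 tested genes of ER calcium handling, 0 rose and 2 fell. RCN1, a calcium-binding protein of the ER lumen, fell by 0.45 on the log2 scale, from 118 ± 2.45 to 86.3 ± 11.4 FPKM (SD, n = 3 each; adjusted p = 0.0321, limma). CALU, of the same family, fell by 0.25, from 222 ± 3.89 to 186 ± 1.14 FPKM (adjusted p = 0.0293, limma). CALR, the calcium-binding member, did not pass, as given above.

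The ATF4 arm and the chaperones outside the ER were set beside the UPR genes. Of 14 tested ATF4 arm genes 0 rose and 3 fell (21.4%), where 5.46% of all tested rows rose and 8.13% fell, and their median log2 fold change was -0.25. The count of 3 became 1 without the filter on low values, without shCtr replicate 2 or without shZNF148 replicate 3. It became 0 without shCtr replicate 1, shCtr replicate 3 or shZNF148 replicate 1, and 5 without shZNF148 replicate 2. ATF3, a stress-induced transcription factor, fell by 0.62 on the log2 scale, from 5.60 ± 0.877 to 3.30 ± 0.663 FPKM (SD, n = 3 each; adjusted p = 0.0441, limma). ASNS, asparagine synthetase, fell by 0.53, from 19.6 ± 1.62 to 13.3 ± 0.637 FPKM (adjusted p = 0.0178, limma). VLDLR, a lipoprotein receptor induced by this arm, fell by 0.58, from 16.5 ± 1.72 to 10.8 ± 1.58 FPKM (adjusted p = 0.0343, limma). ATF4 (-0.32, adjusted p = 0.0916, limma) and DDIT3 (-0.30, 0.236) did not pass. Of 19 tested cytosolic and mitochondrial chaperones 0 rose and 1 fell. That gene was TRAP1, the mitochondrial paralog of HSP90, which fell by 0.42, from 51.7 ± 0.769 to 38.6 ± 4.71 FPKM (adjusted p = 0.0375, limma). The cytosolic paralogs HSP90AA1 (-0.21, adjusted p = 0.0819, limma) and HSP90AB1 (-0.17, 0.125) did not pass. Whether these lists differ from the UPR members was not tested.

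Genes that share the promoter element were also counted, as a list made after the data were seen and without a test. Of the genes with ERSE in a promoter window, 15 were tested, and 6 of them had a higher mean in shZNF148. The member HSP90B1 and EIF2A fell and 0 rose, where 8.13% of all rows fell and 5.46% rose, and the median log2 fold change was -0.04. Of 14 tested genes with ERSE-II, 1 rose (RAD9A) and 2 fell (CAMTA1 and RUVBL2), beside the same shares of all rows, with a median of 0.05. HSPA5, CALR and XBP1 carry the same element as HSP90B1, and their log2 fold changes of 0.25, -0.05 and 0.14 stand beside its -0.52.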

How the data were processed

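RNA-seq values of MDA-MB-231 cells were compared between 3 shCtr and 3 shZNF148 samples, grouped by their labels. The values deposited by the authors are FPKM, 1 column a sample, and 0 columns stayed unused. The submitters' processing notes name bcl2fastq 2.17.1.14, TopHat2 2.0.14, Cufflinks 2.2.1 and Cuffnorm 2.2.1 with the builds hg18 and hg19, while the paper's methods name Salmon, GRCh38 and DESeq2. Which of these made the table, and its annotation, are not given in the sources used here. Read counts are not in the table, so the precision of low values is unknown. Positions and sequences come from RefSeq and GENCODE on GRCh38, and each promoter element was checked on the genome sequence.

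On log2(FPKM + 1), which understates changes of low genes, limma 3.58.1 (R 4.3.3) fitted condition alone to the 11777 of 24108 rows that averaged 1 FPKM or more. It used a variance trend in eBayes and the Benjamini-Hochberg adjustment. A gene with several rows was represented by its highest row. Mean FPKM of members was also compared by exact permutation, two-sided. The members and lists were chosen with earlier results of these data known. Named by rule were the members, ZNF148, the 5 rows most like HSPA5 and, in each list, every gene past an adjusted p of 0.05 and 1.5-fold, then those with the smallest adjusted p under 0.05, up to 3 a list. Other genes are said to have been chosen after their values were seen or serve as pathway context. Alternatives covered the pseudocount, filter, scaling, replicate number, variance model, rows sharing an identifier and each replicate left out. The level of 1 marker gene is not reported here. The fit was tested on simulated data. Figures were drawn with matplotlib 3.10.9 in Python 3.11.15.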

Additional observations from a re-analysis of the deposited data

How the results depend on the processing

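The replicate numbers did not pair the samples: across rows, the deviations from the group mean correlated at 0.001, -0.088 and 0.030 between samples with the same number. With the replicate block, 0 members and 2 genes of the ER lists fell and 1 gene of the lists rose, among 130 rows higher and 271 lower (99 and 216 with 1.5-fold). HSP90B1 then had an adjusted p of 0.0648 (limma), and 5 of the 19 named list genes passed. Members kept their direction except CALR, at 0.13 with quantile normalization and 0.01 without shZNF148 replicate 1, and PDIA4, at -0.06 without shZNF148 replicate 2. Over the fits with a replicate left out, CALR ranged from -0.14 to 0.01, PDIA4 from -0.06 to 0.09 and the members' median from -0.10 to 0.04. The cause was not tested. Members lower numbered 0 without a filter on low values and 0 with quantile normalization, which moved the members' median to 0.11. List genes higher numbered 2 without the filter, 11 with upper-quartile scaling, 12 with quantile normalization and 4 without the trend. Rows higher at the adjusted p numbered 401 without the filter, where more rows were tested. With a pseudocount of 5 FPKM, 76 rows were called higher and 204 lower. With each replicate left out, rows higher ranged from 3 to 628 (3 to 209 with 1.5-fold) and rows lower from 19 to 1092 (19 to 393). The lowest of these counts came without shCtr replicate 1 (3 higher and 26 lower) and without shCtr replicate 3 (3 higher and 19 lower). In the same fits members lower ranged from 0 to 2 (0 to 1 with 1.5-fold), list genes higher from 0 to 6 and lower from 0 to 16. With a replicate left out, the ZNF148 log2 fold change ranged from -1.74 to -1.45. Its adjusted p (limma) was 0.0673 without shCtr replicate 1 and 0.0653 without shCtr replicate 3. Of 159 member values under alternatives, 148 stayed on their side of the threshold with their direction. For the 9 members that did not pass in the main fit, this means that they mostly stayed short of it. HSP90B1, the only member that passed there, lost its call in 7 of its 16 alternatives. ZNF148 and ERN1 averaged under 5 FPKM and have no value with that filter. Fewer samples leave fewer residual degrees of freedom in these fits.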
